A study of Mus musculus with 15 samples.

Results

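The 36 genes examined here encode the machinery of DNA replication and S phase: the helicase that unwinds DNA, the factors that load and start it, the polymerases, clamp and ligase of the fork, the enzymes that supply nucleotides, and the cyclins and transcription factor that open S phase. They were taken as a list of gene names by function. On the array, 35 of the 36 had a probe set that carries their symbol alone, and for each the brightest such probe set was used, out of 18193 genes read in the same way. Chaf1a had no such probe set in the annotation used and was not analysed here. Tyms was read from a dim probe set with a mean log2 signal of 3.63, the 25.8th percentile of all probe sets, so little can be read from its values.

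Expression was measured in whole tumors of PDA30364, a single mouse line from a pancreatic ductal adenocarcinoma. Cells in PBS and Matrigel were injected and grown under the skin of C57BL/6-Ly5.1 mice that were 6 to 12 weeks old at inoculation. In the MEKi/CD40 Ab group (n = 4), mice were given GDC-0623, an inhibitor of MEK (MEKi), daily at a dose of 30 mg/kg for about 2 weeks. They also had an agonist antibody to CD40, injected on days 3, 5 and 7 of treatment with a last dose 1 day ahead of the analysis. The MEKi group (n = 3) received the inhibitor with control IgG, the CD40 Ab group (n = 4) received vehicle with the CD40 antibody, and the control group (n = 4) received vehicle with control IgG. All tumors were taken on day 26, and RNA from each was hybridized to 1 Affymetrix whole-genome mouse expression array. The hosts are immunocompetent, and each RNA holds tumor cells, stroma, infiltrating cells and adjoining tissue together, so that fewer cycling cells and less RNA per cell cannot be told apart.

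A cell prepares to copy its genome by loading the MCM2-7 helicase onto origins late in mitosis and in G1, and fires those origins in S phase once cyclin-dependent kinases are active. The E2F transcription factors, released when cyclin D and cyclin E kinases phosphorylate the retinoblastoma protein, switch on most of the genes needed for this step. Genes of G2 and mitosis come on later and are mostly governed by other promoter elements, the CHR and CCAAT boxes. MEK lies in a growth factor signalling pathway upstream of cyclin D. The comparison asks how far treatment with the inhibitor, the antibody or both changed the RNA of the replication machinery in the tumor.

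The promoters of the replication genes were compared with those of the mitosis and G2/M genes and of the related gene lists described below. RefSeq windows (GRCm38.p6, 250 bases before to 50 bases after each start site) were found for 31 of the 36 genes, Mcm4, Gins1, Gins2, Pole and Ccne2 having none. They were searched on both strands for the E2F letters TTTCCCGC, TTTGGCGC, TTTCGCGC and TTTGCCGC, where TTTGGCGC on a strand can overlap TTTCGCGC on the other. At least 1 of these stood in 13 of 31 replication gene windows (41.9%), against 1 of 20 windows of mitosis and G2/M genes (5.0%) and 2.6% of 27025 gene windows in all. The CHR letters TTTGAA stood in 3 of 31 replication gene windows (9.68%), 14 of 20 mitosis gene windows (70.0%) and 20.2% of all. The CCAAT letters stood in 18 of 31 (58.1%), 16 of 20 (80.0%) and 41.1%. In 33 windows of other replication genes, E2F letters stood in 27.3% and CHR letters in 24.2%. In 19 windows of genes that control the G1 to S step, these shares were 42.1% and 31.6%. The E2F share is thus not particular to the 36 genes, and the low CHR share was not found in these related lists. The stretches below are shown because they carry these letters in genes whose values are described further on. Each is written 5′ to 3′ on the strand of its gene, ends before the start site, and has the matched letters of the element named in capitals. The first 4 show E2F letters in Mcm5 (chr8:75109330-75109393, plus strand), Mcm6 (chr1:128359719-128359841, minus strand), Cdc6 (chr11:98907987-98908046, plus strand) and Pola1 (chrX:93632260-93632319, minus strand). The Rrm2 stretch (chr12:24708178-24708234, plus strand) shows CCAAT letters and its window held no E2F letters. The last 2 show CHR letters in the mitosis genes Cdk1 (chr10:69352913-69353009, minus strand) and Cdc20 (chr4:118437344-118437387, minus strand).
Mcm5, E2F letters: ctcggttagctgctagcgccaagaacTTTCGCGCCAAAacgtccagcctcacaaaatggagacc
Mcm6, E2F letters: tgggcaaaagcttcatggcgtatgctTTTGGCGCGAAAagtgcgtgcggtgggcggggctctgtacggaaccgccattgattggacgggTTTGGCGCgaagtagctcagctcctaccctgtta
Cdc6, E2F letters: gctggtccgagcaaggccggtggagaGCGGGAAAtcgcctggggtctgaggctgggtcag
Pola1, E2F letters: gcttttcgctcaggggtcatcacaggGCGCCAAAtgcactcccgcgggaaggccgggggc
Rrm2, CCAAT letters: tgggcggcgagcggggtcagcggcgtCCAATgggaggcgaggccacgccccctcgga
Cdk1, CHR letters: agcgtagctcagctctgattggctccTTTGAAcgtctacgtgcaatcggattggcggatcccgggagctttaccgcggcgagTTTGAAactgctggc
Cdc20, CHR letters: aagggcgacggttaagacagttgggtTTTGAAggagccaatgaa
A match says only that these letters are there, and neither binding nor activity was measured.

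The arrays had closely similar signal ranges, with medians of 5.16 to 5.24, and for Gapdh the 3′ control probe set differed from the 5′ one by -0.07 to 0.02. The 18S ribosomal RNA signal was 13.17 to 13.41 in the 7 arrays of tumors that received MEKi and 12.71 to 13.10 in the 8 others, without overlap, and its part in the results was not tested. Epithelial genes of the tumor line (11 measured) averaged 10.08 in MEKi/CD40 Ab, 10.25 in MEKi, 9.84 in CD40 Ab and 9.80 in control tumors. Among them, Krt8 averaged 12.9 to 13.2, but the 11 differed widely. Their log2 fold changes ran from -0.54 to 2.81 in MEKi against control and from -0.295 to 2.03 in MEKi/CD40 Ab against control. Pancreatic acinar genes (5 measured) averaged 5.76, 5.96, 5.74 and 5.83 in the same order of groups. Their log2 fold changes ran from -0.22 to 1.05 in MEKi against control and from -0.29 to 0.39 in MEKi/CD40 Ab against control. Skeletal muscle genes (15 measured) averaged 8.88 ± 0.73 in MEKi/CD40 Ab (n = 4), 8.79 ± 1.63 in MEKi (n = 3), 5.49 ± 0.87 in CD40 Ab (n = 4) and 6.26 ± 1.11 in control tumors (n = 4), with the highest array, 10.66, in MEKi replicate 1. Skin keratinocyte genes (12 measured) averaged 4.67 ± 0.24, 6.67 ± 0.46, 5.11 ± 0.62 and 5.17 ± 0.56 in the same order of groups, and fibroblast genes (10 measured) 10.27 ± 0.24, 11.36 ± 0.48, 9.49 ± 0.46 and 9.64 ± 0.14. T cell genes (7 measured) averaged 6.75 ± 0.52, 6.15 ± 0.95, 6.00 ± 0.24 and 5.15 ± 0.22, and macrophage genes (10 measured) 9.65 ± 0.31, 9.12 ± 0.68, 9.40 ± 0.13 and 8.80 ± 0.13. Against control tumors, 14 of 15 muscle, 7 of 7 T cell and 8 of 10 macrophage genes were higher past the threshold in MEKi/CD40 Ab tumors. The part of these other cells in the results below was not tested. Fits with muscle and skin levels as covariates are given, but they cannot separate muscle from treatment. The muscle level was 7.75 to 10.66 in the 7 arrays of tumors that received MEKi and 4.64 to 7.11 in the 8 others, without overlap. Animal numbers in the labels fall into a lower run (below 10000) and an upper run. These hold 4 and 0 of the MEKi/CD40 Ab tumors, 0 and 3 of the MEKi tumors, 2 and 2 of the CD40 Ab tumors and 3 and 1 of the control tumors, so that treatment and run cannot be told apart between MEKi/CD40 Ab and MEKi tumors. Only 1 control tumor shares the run of the 3 MEKi tumors, so treatment and run are largely confounded in MEKi against control as well.

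The replication genes lay near the control level on average in each treated group and, under MEKi alone, varied widely from tumor to tumor. Their mean level was 8.46 ± 0.18 in MEKi/CD40 Ab tumors (8.38, 8.58, 8.64 and 8.24), 8.67 ± 0.55 in MEKi tumors (8.15, 8.63 and 9.24), 8.63 ± 0.12 in CD40 Ab tumors (8.69, 8.77, 8.51 and 8.56) and 8.64 ± 0.08 in control tumors (8.74, 8.59, 8.64 and 8.57), all on the log2 scale with the SD over arrays. MEKi replicate 3 was the highest of the 15 arrays for 33 of the 35 genes, and MEKi replicate 1 was the lowest for 24. The 3 MEKi tumors ranked replicate 1, 2, 3 from low to high for 34 genes. The median SD of a gene was 0.18 in MEKi/CD40 Ab, 0.56 in MEKi, 0.12 in CD40 Ab and 0.10 in control tumors. MEKi replicate 1 was also the highest of the 15 arrays for muscle (10.66), fibroblast (11.90), B cell (6.92, the others 4.51 to 5.37) and endothelial genes (6.90), and the part of these cells in its low values was not tested.

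**Figure D1:**
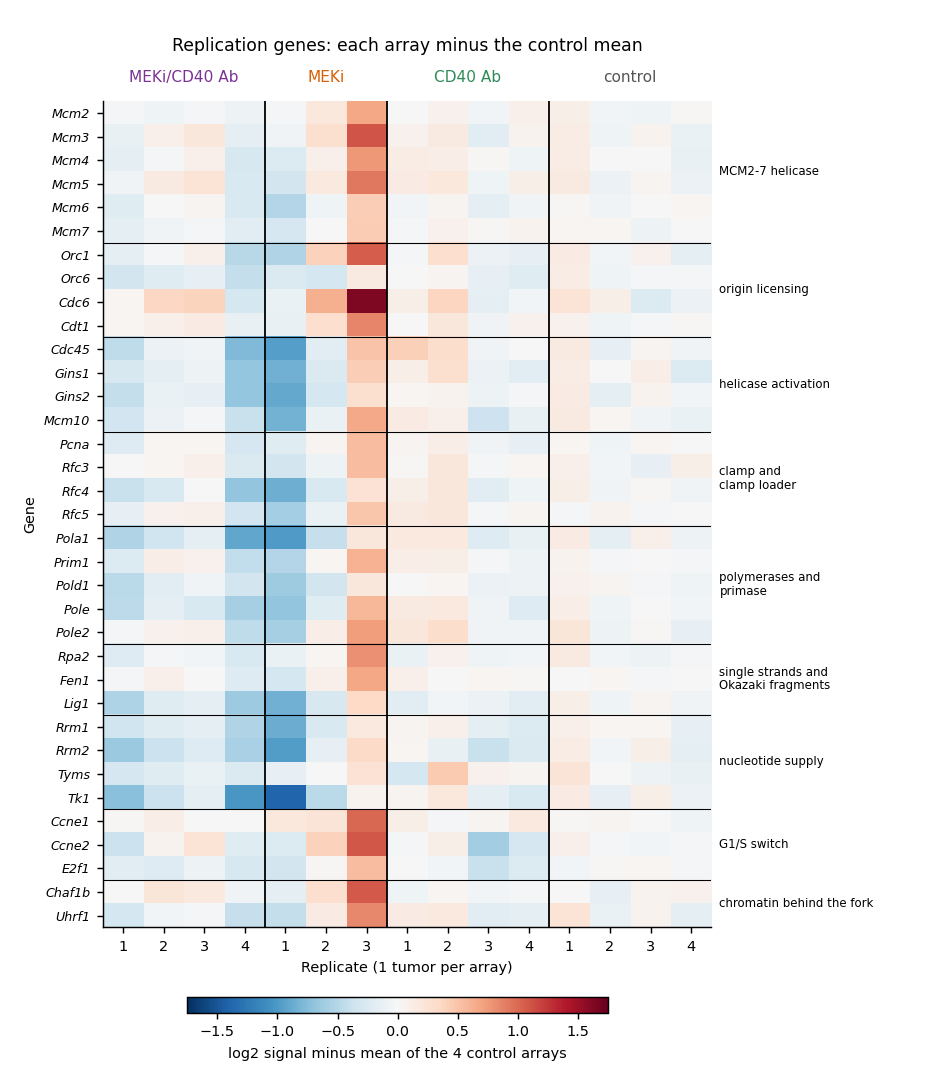
Log2 signal of each of the 35 replication genes (rows, by role) in each of the 15 arrays (columns, by group and replicate) minus the mean of the 4 control arrays, from blue (lower) to red (higher). MEKi replicate 3 is above the control mean for all 35 genes and MEKi/CD40 Ab replicate 4 below it for all 35.

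In MEKi/CD40 Ab against control tumors, 4 of the 35 replication genes were lower past the threshold (limma, Benjamini-Hochberg adjusted p under 0.05 over 45037 probe sets), none was higher and 31 did not pass. The 4 were Rrm2, Lig1, Pole and Orc6, each at 0.73 to 0.83 of the control level. That is 11.4% of the genes, where 14.3% of all probe sets passed in either direction, 7.23% lower and 7.09% higher, so the share is near the background and is not a result about the group. The median log2 fold change was -0.14, with 29 genes below 0, 5 above and Mcm3 at 0, where the median over all 18193 genes was -0.04. In 7 genes (20.0%) the 4 treated arrays all lay below the 4 control arrays, against 14.4% of all genes, and in none did they all lie above (12.3% of all genes). The 95% intervals stayed inside a 2-fold change for all 35, the widest reaching -0.95 (Tk1) and 0.48 (Cdc6).

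The genes of nucleotide supply lay lowest. Rrm2, the regulated subunit of ribonucleotide reductase, which makes deoxynucleotides, read 10.30, 10.57, 10.73 and 10.39 in MEKi/CD40 Ab tumors, 9.97, 10.81 and 11.29 in MEKi tumors, 10.99, 10.82, 10.56 and 10.70 in CD40 Ab tumors, and 11.08, 10.90, 11.05 and 10.78 in control tumors. All 4 MEKi/CD40 Ab values lay below all 4 control values, although replicate 3 (10.73) was close to the lowest control (10.78). Its log2 fold change was -0.46 ± 0.11 (SE, limma adjusted p = 0.0201), and the other 2 probe sets of the gene gave -0.54 (adjusted p = 0.0256) and -0.59 (adjusted p = 0.0736). Tk1, thymidine kinase of the salvage route, read 8.78, 9.14, 9.35 and 8.49 in MEKi/CD40 Ab tumors, 8.13, 9.04 and 9.57 in MEKi tumors, 9.56, 9.70, 9.36 and 9.24 in CD40 Ab tumors, and 9.65, 9.37, 9.62 and 9.41 in control tumors. It had the lowest fold change of the 35 (-0.57 ± 0.17), and its MEKi/CD40 Ab and control arrays did not overlap, but it missed the threshold (limma adjusted p = 0.0512). Rrm1, the large reductase subunit, read 9.43, 9.56, 9.62 and 9.24 in MEKi/CD40 Ab tumors, 8.91, 9.50 and 9.95 in MEKi tumors, 9.82, 9.86, 9.61 and 9.54 in CD40 Ab tumors, and 9.86, 9.80, 9.80 and 9.63 in control tumors (MEKi/CD40 Ab against control -0.31 ± 0.09, adjusted p = 0.0516). Its 4 MEKi/CD40 Ab values also lay below every control value, though 9.62 and 9.63 were nearly equal. Tyms, thymidylate synthase, had -0.22 at its dim probe set (adjusted p = 0.117).

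Among the fork enzymes, Lig1, the ligase that seals Okazaki fragments, read 9.15, 9.48, 9.52 and 9.05 in MEKi/CD40 Ab tumors, 8.84, 9.41 and 10.03 in MEKi tumors, 9.49, 9.64, 9.59 and 9.49 in CD40 Ab tumors, and 9.79, 9.61, 9.73 and 9.62 in control tumors. All MEKi/CD40 Ab arrays were lower than all control arrays (-0.39 ± 0.11, adjusted p = 0.0457). Pole, the catalytic subunit of the leading strand polymerase, read 7.12, 7.43, 7.31 and 7.00 in MEKi/CD40 Ab tumors, 6.89, 7.37 and 8.17 in MEKi tumors, 7.74, 7.75, 7.52 and 7.36 in CD40 Ab tumors, and 7.70, 7.51, 7.59 and 7.53 in control tumors. The groups again did not overlap (-0.37 ± 0.10, adjusted p = 0.0330). Pola1, the catalytic subunit of the polymerase that starts each fragment, read 7.32, 7.50, 7.70 and 6.95 in MEKi/CD40 Ab tumors, 6.86, 7.45 and 8.05 in MEKi tumors, 8.02, 8.02, 7.63 and 7.72 in CD40 Ab tumors, and 8.00, 7.70, 7.94 and 7.77 in control tumors. Replicate 3 of MEKi/CD40 Ab equaled the lowest control, and the difference missed the threshold (-0.49 ± 0.15, adjusted p = 0.0559). The other polymerase genes lay between -0.26 (Pold1, lagging strand polymerase, adjusted p = 0.0903) and -0.08 (Pole2), with Prim1, the primase, at -0.12. Fen1, the flap endonuclease, had -0.04 and Rpa2, a subunit of the single strand binding protein, -0.14, neither past the threshold.

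Among the factors that license and start origins, Orc6, a subunit of the origin recognition complex, read 8.86, 8.96, 9.03 and 8.76 in MEKi/CD40 Ab tumors, 8.92, 8.87 and 9.34 in MEKi tumors, 9.18, 9.22, 9.04 and 8.97 in CD40 Ab tumors, and 9.31, 9.10, 9.14 and 9.16 in control tumors. The MEKi/CD40 Ab arrays all lay below the control arrays (-0.28 ± 0.08, adjusted p = 0.0417). Cdc6, which loads the helicase with Cdt1, read 7.21, 7.53, 7.56 and 6.87 in MEKi/CD40 Ab tumors, 7.05, 7.79 and 8.81 in MEKi tumors, 7.28, 7.55, 7.00 and 7.12 in CD40 Ab tumors, and 7.41, 7.28, 6.93 and 7.07 in control tumors. Its groups overlapped and its fold change against control, 0.12 ± 0.16 (adjusted p = 0.675), was the highest of the 35. Cdt1 read 10.31, 10.37, 10.42 and 10.15 in MEKi/CD40 Ab tumors, 10.15, 10.57 and 11.13 in MEKi tumors, 10.28, 10.48, 10.22 and 10.35 in CD40 Ab tumors, and 10.36, 10.21, 10.25 and 10.30 in control tumors (0.03 ± 0.07, adjusted p = 0.809, and -0.01 after each array was centred on its median). The 6 subunits of the MCM2-7 helicase had fold changes of -0.11 to 0.01, with Mcm5 at 0.01 and Mcm6 at -0.11, none past the threshold. The 4 genes that activate it, Cdc45, Gins1, Gins2 and Mcm10, had -0.35 to -0.22, none past the threshold at the probe sets used. A second, dimmer probe set of Mcm10 (mean 4.64) gave -0.30 and passed (adjusted p = 0.0132).

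The remaining roles showed small differences. Pcna, the sliding clamp, had -0.11, and the clamp loader genes Rfc3, Rfc4 and Rfc5 had -0.03, -0.34 and -0.08. E2f1, the transcription factor, had -0.20 with no overlap of the groups (limma adjusted p = 0.0575). Its other 2 probe sets, both dimmer, gave -0.078 (adjusted p = 0.630) and -0.045 (adjusted p = 0.798). The cyclin E genes Ccne1 and Ccne2, whose products activate the kinase of the G1 to S step, had 0.03 and -0.07. Chaf1b, a subunit of the factor that assembles nucleosomes behind the fork, read 7.18, 7.39, 7.35 and 7.12 in MEKi/CD40 Ab tumors, 7.01, 7.48 and 8.26 in MEKi tumors, 7.11, 7.22, 7.13 and 7.16 in CD40 Ab tumors, and 7.19, 7.04, 7.24 and 7.26 in control tumors (0.08 ± 0.08, adjusted p = 0.580). Uhrf1, which carries DNA methylation onto the new strand, had -0.20 (adjusted p = 0.312).

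**Figure D2:**
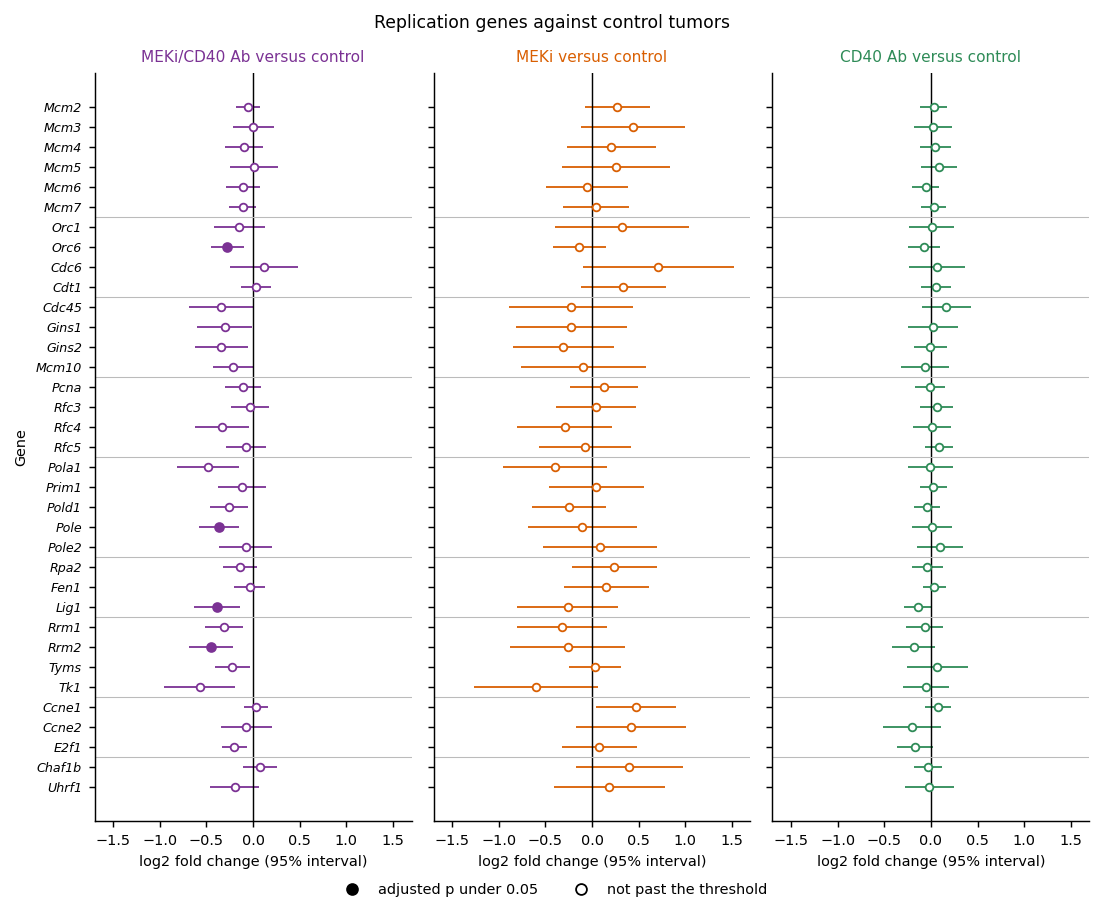
Log2 fold change of each replication gene against control tumors with its 95% interval from limma (x axis), for MEKi/CD40 Ab, MEKi and CD40 Ab tumors; filled points passed the threshold on adjusted p. The 4 filled points are Orc6, Pole, Lig1 and Rrm2 in MEKi/CD40 Ab tumors, and the MEKi intervals are the widest, reaching 1.52 for Cdc6.

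These calls rested on few arrays. The count ran from 0 (without MEKi/CD40 Ab replicate 4, control replicate 1 or control replicate 3) to 10 (without MEKi/CD40 Ab replicate 3). It was 1 without control replicate 2 or MEKi/CD40 Ab replicate 1, 2 without control replicate 4 and 3 without MEKi/CD40 Ab replicate 2. Of all probe sets, 4077 (without control replicate 1) to 6035 (without MEKi/CD40 Ab replicate 3) passed in these fits. The count of replication genes was 0 in 1 fit of all 15 arrays. It was also 0 with the muscle and skin levels as covariates, where the median turned to 0.15. The muscle level did not overlap between tumors with and without MEKi, so the covariate fit cannot separate the 2. Within the lower run of animal numbers alone (4 MEKi/CD40 Ab against 3 control tumors) the median was -0.15, with 30 of 35 genes below 0.

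In MEKi against control tumors, none of the 35 replication genes passed the threshold at the probe sets used, where 15.9% of all probe sets did (limma; 7.52% higher, 8.38% lower). A second, dimmer probe set of Cdc45 (mean 5.57) gave -0.25 and passed (limma adjusted p = 0.0462), while the one used gave -0.22 (adjusted p = 0.648). The median log2 fold change was 0.05, with 20 genes above 0 and 15 below, against -0.04 over all genes. The values ran from -0.60 for Tk1 to 0.71 for Cdc6, and intervals were wide: that of Cdc6 ran from -0.10 to 1.52 and that of Tk1 from -1.26 to 0.07, and 4 of the 35 reached a 2-fold change. Ccne1, a cyclin E gene, read 6.48, 6.57, 6.46 and 6.45 in MEKi/CD40 Ab tumors, 6.65, 6.68 and 7.46 in MEKi tumors, 6.56, 6.44, 6.51 and 6.63 in CD40 Ab tumors, and 6.48, 6.51, 6.46 and 6.39 in control tumors. All 3 MEKi arrays were above all 4 control arrays, the single gene of the 35 for which this held (16.4% of all genes; none was lower in this way, 19.3% of all genes), but its difference did not pass (0.47 ± 0.19, adjusted p = 0.128). With all 15 arrays in 1 fit it was the single replication gene past the threshold (adjusted p = 0.0302). Mcm3, a helicase subunit, read 9.0, 9.22, 9.33 and 8.96 in MEKi/CD40 Ab tumors, 9.06, 9.41 and 10.23 in MEKi tumors, 9.20, 9.28, 8.93 and 9.19 in CD40 Ab tumors, and 9.26, 9.05, 9.19 and 9.01 in control tumors. Its MEKi mean was 0.44 ± 0.24 above control (adjusted p = 0.262), and replicate 3 lay far above the other 14 arrays.

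**Figure D3:**
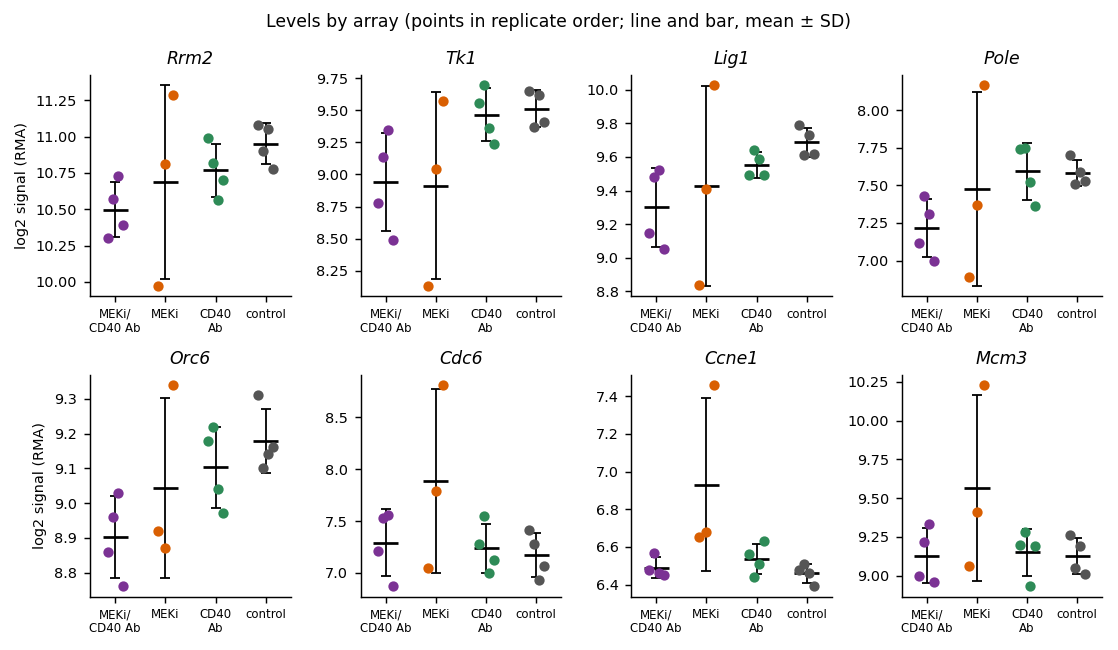
Log2 signal (y axis) of 8 replication genes in each array, arranged by group; a black line marks each mean and a bar its SD. Rrm2, Tk1, Lig1, Pole and Orc6 are lower in all 4 MEKi/CD40 Ab arrays than in all 4 control arrays, and Ccne1 is higher in all 3 MEKi arrays than in all 4 control arrays.

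The direction in MEKi tumors depended on which array was included. Without MEKi replicate 1 the median was 0.27 and 5 genes were higher past the threshold, 14.3% of the 35, where 17.5% of all probe sets passed in that fit (8.6% higher and 8.91% lower): Cdc6 (1.13, adjusted p = 0.0215), Ccne2 (0.75, adjusted p = 0.0194), Orc1 (0.74, adjusted p = 0.0242), Chaf1b (0.69, adjusted p = 0.0436) and Cdt1 (0.57, adjusted p = 0.0311). Of these, Orc1 encodes the largest subunit of the origin recognition complex. Without MEKi replicate 3 the median was -0.21 and Pola1 and Pold1 were lower past the threshold. Over the fits of this comparison with 1 array left out, 4398 to 7883 of all probe sets passed. These calls are therefore not a result about the group. Within the upper run (3 MEKi tumors against 1 control tumor) the median was 0.07, with 14 of 35 genes below 0.

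The roles did not stand at the same place within the MEKi-treated tumors. Relative to the control mean, the MCM2-7 helicase genes stood at -0.06 ± 0.14 in MEKi/CD40 Ab tumors and 0.20 ± 0.49 in MEKi tumors, and the nucleotide supply genes at -0.39 ± 0.20 and -0.29 ± 0.53. The difference between these 2 role groups within each array, nucleotide supply minus helicase, was -0.38, -0.31, -0.25 and -0.38 in MEKi/CD40 Ab tumors, -0.60, -0.33 and -0.52 in MEKi tumors, -0.09, 0.04, -0.08 and -0.21 in CD40 Ab tumors, and 0.05, -0.001, 0.04 and -0.09 in control tumors. Every tumor that received MEKi lay below every tumor that did not, although the helicase and nucleotide levels themselves varied over the MEKi arrays. These 2 role groups were set against each other after their values were seen, so this is a description without a test. Members with E2F letters in their promoter (13 genes) had a median of 0.09 in MEKi against control tumors and -0.11 in MEKi/CD40 Ab against control tumors, and those without (17 genes) 0.03 and -0.20.

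**Figure D4:**
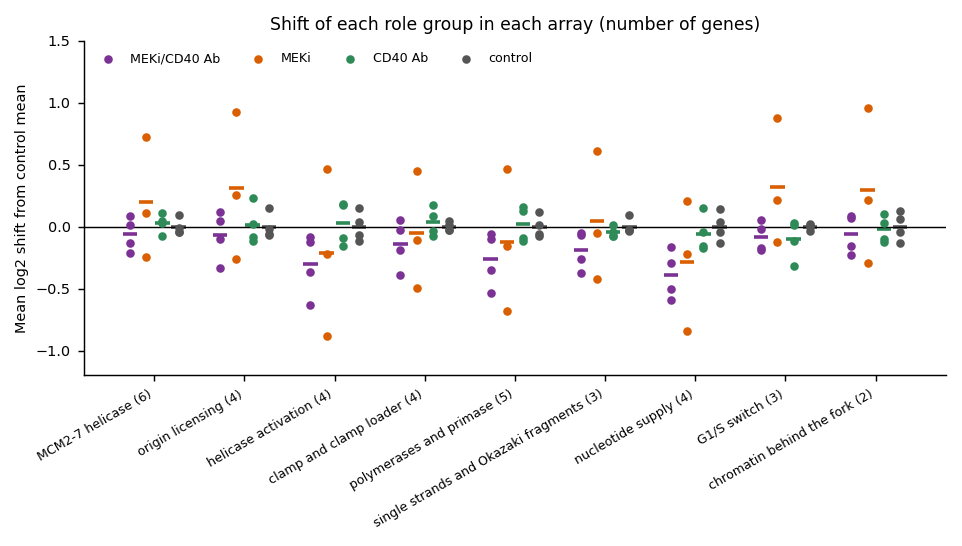
Mean log2 shift of each role group from the control mean (y axis) in each array (points), by group, with the group mean as a bar; the number of genes is given with each role on the x axis. Nucleotide supply is the role whose 4 MEKi/CD40 Ab arrays (-0.59 to -0.16) all lie below the 4 control arrays (-0.14 to 0.14) by its mean, together with single strands and Okazaki fragments (-0.38 to -0.05 against -0.03 to 0.09).

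In CD40 Ab against control tumors, none of the 35 genes passed the threshold, where 0.717% of all probe sets did (limma; 0.659% higher and 0.0577% lower). The median log2 fold change was 0.01, the range was -0.21 (Ccne2) to 0.17 (Cdc45), and no 95% interval went beyond -0.51 (Ccne2) or 0.43 (Cdc45). For no gene were the 2 groups of arrays separate, where 4.69% of all genes were higher and 3% lower in this way. The median kept to between -0.05 and 0.04 when any 1 array was left out.

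Adding the antibody to MEKi gave no call either. Against MEKi tumors, 0 of 35 genes passed in MEKi/CD40 Ab tumors, where 2.81% of all probe sets did (limma; 1.01% higher and 1.79% lower). The median was -0.19 with 33 genes below 0, but it was 0.09 without MEKi replicate 3 and -0.48 without MEKi replicate 1, so its sign rested on 1 tumor. The lowest value was that of Cdc6 (-0.59 ± 0.37, adjusted p = 0.478), with a 95% interval of -1.46 to 0.27. Ccne1 was lower in all 4 MEKi/CD40 Ab arrays than in all 3 MEKi arrays (-0.44 ± 0.19, adjusted p = 0.277), as were 10.8% of all genes (8.77% were higher in all, with none of the 35). Against CD40 Ab tumors, 0 of 35 genes passed in MEKi/CD40 Ab tumors, where 4.48% of all probe sets did (limma; 2.54% higher and 1.94% lower). The median was -0.15 with 32 genes below 0 (0.22 with muscle and skin levels as covariates), and Gins2, a subunit of the complex that activates the helicase, was the single gene with separate groups (-0.34, adjusted p = 0.151), where 10.1% of all genes were lower and 7.26% higher in this way. The test of whether the antibody acted differently with and without MEKi passed for 0 of 35 genes, where 3.2% of all probe sets did (1.5% above 0 and 1.7% below). Its median was -0.22, and 0.07 without MEKi replicate 3, and its lowest adjusted p was 0.182 (Ccne1, -0.52 ± 0.20). Without MEKi replicate 1, Mcm2 passed. Over the fits of this test with 1 array left out, 745 to 2072 of all probe sets passed. The comparisons share arrays, so their values are given side by side and not as separate evidence.

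The other genes of the pathway were read in the same fits. Of 40 further replication genes, 8 were lower and 0 higher past the threshold in MEKi/CD40 Ab against control tumors (20% of the list, median -0.19, where 14.3% of all probe sets passed), among them Chtf18, a subunit of an alternative clamp loader (-0.59, adjusted p = 0.00786), Dbf4, the activator of the CDC7 kinase that fires origins (-0.54, adjusted p = 0.0332), and the origin recognition subunits Orc5 (-0.28, adjusted p = 0.0119) and Orc3 (-0.21, adjusted p = 0.0438). In MEKi against control tumors 5 were lower and 2 higher (median 0.01), 17.5% of the list, near the 15.9% of all probe sets, with Dbf4 at -0.88 (adjusted p = 0.0171), Pold4, a small subunit of the lagging strand polymerase, at -0.79 (adjusted p = 0.00822), Dna2, a nuclease and helicase, at 0.60 (adjusted p = 0.0416), and Pole4, a small subunit of the leading strand polymerase, at 0.40 (adjusted p = 0.0413). None passed in CD40 Ab against control tumors. Against CD40 Ab tumors, 5 were lower in MEKi/CD40 Ab tumors, 12.5% of the list against 4.48% of all probe sets. Among them were Chtf18 (-0.60, adjusted p = 0.0305) and Pole3, another small subunit of the leading strand polymerase (-0.31, adjusted p = 0.0215).

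Of 24 genes that control the G1 to S step, 1 was higher and 2 lower in MEKi/CD40 Ab against control tumors (median -0.09), 12.5% of the list and no more than the 14.3% of all probe sets. Cdkn1a, which encodes the cyclin-dependent kinase inhibitor p21, was higher (0.76, adjusted p = 0.0176), and Cdkn2b, encoding the inhibitor p15 (-0.35, adjusted p = 0.0277), and the growth regulator Myc (-0.30, adjusted p = 0.0296) were lower. In MEKi against control tumors 5 were higher and 5 lower (median 0.05), 41.7% of the list against 15.9% of all probe sets, with Cdkn1c, encoding the inhibitor p57, at 1.22 (adjusted p = 0.0379), Cdkn1a at 1.03 (adjusted p = 0.00169), Cdkn2b at -0.99 (adjusted p = 0.00272) and Cdkn2d, encoding the inhibitor p19, at -0.77 (adjusted p = 0.0104). Cdkn1a read 8.48, 9.12, 9.24 and 8.83 in MEKi/CD40 Ab tumors, 9.18, 9.23 and 9.17 in MEKi tumors, 8.68, 8.52, 8.12 and 8.21 in CD40 Ab tumors, and 8.01, 7.93, 8.45 and 8.25 in control tumors. Unlike the replication genes, it was nearly equal in the 3 MEKi tumors. Between MEKi/CD40 Ab and MEKi tumors, Ccnd3, which encodes cyclin D3, was lower (-0.50, adjusted p = 0.0465) and Cdkn2b higher (0.64, adjusted p = 0.0481). That is 8.33% of the list against 2.81% of all probe sets. The test of whether the antibody acted differently with and without MEKi passed for Ccnd3 (-0.62, adjusted p = 0.00886), Cdkn2a, encoding the inhibitors p16 and p19Arf (0.65, adjusted p = 0.0103), Cdkn1b, encoding p27 (0.59, adjusted p = 0.0232), and Cdkn2b (0.65, adjusted p = 0.0365). These are 16.7% of the list against 3.2% of all probe sets. Both results set MEKi/CD40 Ab tumors of the lower run against MEKi tumors of the upper run, so treatment and run cannot be told apart in them. The calls in MEKi against control set 3 tumors of the upper run against 4 controls, 3 of them of the lower run. Treatment and run are therefore largely confounded in those calls too.

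The genes of mitosis and G2 had a larger share of calls than the other 2 pathway lists in MEKi/CD40 Ab (73.9%) and in MEKi tumors (65.2%), each against control. Of all probe sets, 14.3% and 15.9% passed in these 2 comparisons. Of 23, 17 were lower and 0 higher in MEKi/CD40 Ab against control tumors (median -0.69), 15 lower and 0 higher in MEKi against control tumors (median -1.26), and none passed in CD40 Ab against control tumors (median 0.03). Those past the threshold in MEKi/CD40 Ab tumors ran from Kif20a, a kinesin of cytokinesis (-0.92, adjusted p = 0.0311), and Kif2c, a microtubule depolymerase (-0.85, adjusted p = 0.0234), to cyclin A2, Ccna2 (-0.58, adjusted p = 0.0367), and Mad2l1 of the spindle checkpoint (-0.56, adjusted p = 0.0277). In MEKi tumors they ran from cyclin B2, Ccnb2 (-1.83, adjusted p = 0.0249), and Kif20a (-1.82, adjusted p = 0.0176) to Cdc20, an activator of the anaphase-promoting complex (-1.21, adjusted p = 0.00749), and the spindle kinesin Kif11 (-1.17, adjusted p = 0.0299). Without MEKi replicate 1, 19 of 23 were lower (median -0.81), where 17.5% of all probe sets passed. In MEKi/CD40 Ab against MEKi tumors none passed (median 0.58), where 2.81% of all probe sets did. In MEKi/CD40 Ab against CD40 Ab tumors 3 were lower (median -0.75), 13% of the list against 4.48% of all probe sets. Cdk1, the mitotic kinase shown above by its promoter, read 8.86, 9.21, 9.34 and 8.62 in MEKi/CD40 Ab tumors, 8.05, 8.84 and 9.38 in MEKi tumors, 9.80, 9.82, 9.52 and 9.34 in CD40 Ab tumors, and 9.92, 9.68, 9.79 and 9.39 in control tumors.

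In every tumor that had received MEKi, the shift from the control mean was higher for the replication genes than for the mitosis genes. This also held, by less, in control replicate 4 and CD40 Ab replicates 3 and 4. The mean shifts of the replication genes were -0.25, -0.06, 0.001 and -0.40 in MEKi/CD40 Ab tumors and -0.49, -0.01 and 0.61 in MEKi tumors. Those of the mitosis genes were -0.70, -0.48, -0.38 and -1.28 in MEKi/CD40 Ab tumors and -2.23, -0.97 and -0.75 in MEKi tumors. The mitosis shift minus the replication shift was thus -0.44, -0.42, -0.38 and -0.88 in MEKi/CD40 Ab tumors, -1.74, -0.96 and -1.35 in MEKi tumors, 0.13, 0.09, -0.04 and -0.17 in CD40 Ab tumors, and 0.14, 0.04, 0.06 and -0.25 in control tumors. The 3 MEKi tumors lay lowest, the 4 MEKi/CD40 Ab tumors next, and neither overlapped the other groups. All MEKi tumors are of the upper run of animal numbers and all MEKi/CD40 Ab tumors of the lower, so their order cannot be told apart from the run. Among the tumors without MEKi, this difference was -0.25 to -0.04 in the 3 upper-run arrays and 0.04 to 0.14 in the 5 lower-run arrays, and the mitosis shift itself was -0.31 to -0.16 and -0.0005 to 0.25. In MEKi replicate 3 the 2 lists moved in opposite directions. MEKi replicate 1, with the highest muscle level (10.66), was the lowest array in both lists. MEKi/CD40 Ab replicate 2, with the next highest muscle level (9.89), had a replication level of 8.58. MEKi/CD40 Ab replicate 4, with the lowest muscle level of its group (8.22), was the lowest of its group in both lists (8.24 and 7.95). These are single arrays, and the part of muscle in their values was not tested.

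**Figure D5:**
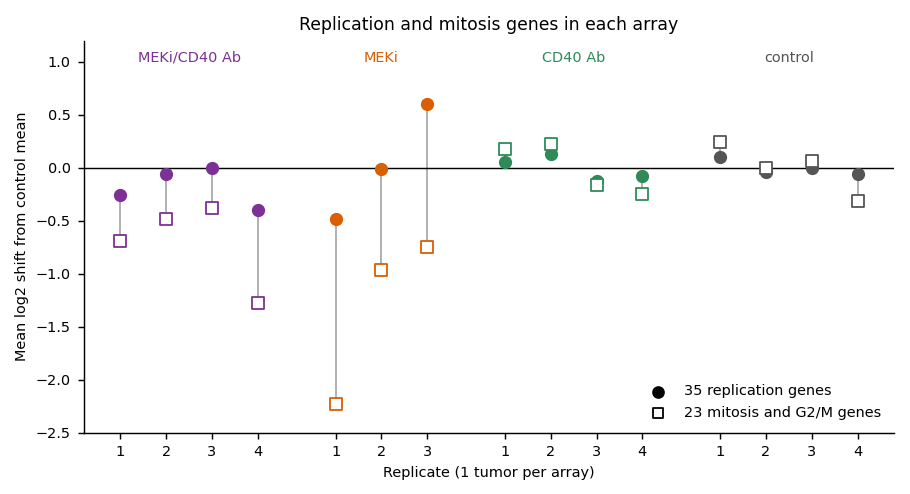
Mean log2 shift from the control mean (y axis) of the 35 replication genes (filled circles) and of 23 mitosis and G2/M genes (open squares) in each array, joined by a line. In all 7 arrays of tumors that received MEKi the square lies below the circle, by 0.38 to 1.74.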

How the data were processed

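Tumor RNA (200 ng, RIN of at least 8) was amplified from its 3′ ends by in vitro transcription, and each tumor was read on 1 array. The authors deposited log2 signals per probe set after robust multi-array average (RMA), that is, background correction, quantile normalization and summarization. For RMA (run in Chipster), the version is not given in the sources used here. RMA places all arrays on a common distribution, so a change shared by most genes would not show. The labels mention 4 to 5 mice per group, against the 3 to 4 arrays per group used here. Of 45101 probe sets, 64 Affymetrix controls were left out. Every deposited column of values was mapped to a sample.

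Groups were compared on the arrays of the 2 groups with limma 3.58.1 in R 4.3.3 (moderated test, two-sided, Benjamini-Hochberg adjustment over 45037 probe sets, threshold 0.05, no fold minimum). The interaction, that is, the antibody's log2 fold change in MEKi-treated tumors less its log2 fold change in vehicle-treated ones, used all 15 arrays. Per gene, the probe set with exactly 1 symbol and the highest mean was used. Errors of fold changes are limma's moderated standard errors, and the number of arrays limits the precision. Replicates are tumors of separate animals.

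Values are given per array for genes past the threshold in any comparison and for the 3 highest and 3 lowest fold changes in MEKi/CD40 Ab and in MEKi against control. For further gene lists, up to 4 passing genes (the 2 highest and 2 lowest) are named; single genes named outside these rules, such as Cdk1, and Cdkn1a with its arrays, were chosen with their values seen. The members and lists were chosen with earlier results of these data known. The scripts were first run on simulated data in which the changed genes were known. Alternatives were 1 fit of all arrays, median centring, leaving out dim probe sets, gene means, a replicate block, the animal number series or muscle and skin levels as covariates (the last in 1 fit of all 15 arrays), and leaving out each array. Promoter windows came from RefSeq (GRCm38.p6).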

Additional observations from a re-analysis of the deposited data

Results flagged for a closer look

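Of 105 sets of 4 arrays (35 genes in each group of 4), 1 held an array far from the rest: Ccne2 in control replicate 1 read 7.75, where the other 3 control arrays read 7.61 to 7.63. Chance marks about 1 in 20 such sets.

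For Fen1, the flap endonuclease, the antibody went with opposite directions in the presence and absence of MEKi. All 4 MEKi/CD40 Ab arrays (9.59 to 9.91) lay below the MEKi mean of 9.97, although MEKi replicate 1 (9.51) read below all 4 and replicate 3 (10.5) raised that mean, and all 4 CD40 Ab arrays (9.83 to 9.91) lay above the control mean of 9.82. The difference of the 2 effects was -0.23 ± 0.21 on the log2 scale and did not pass the interaction test (limma adjusted p = 0.653).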

How the results depend on the processing

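The arrays per group, 3 or 4, limit the precision, and the cause of each change below was not tested. The 4 replication genes called in MEKi/CD40 Ab against control became 0 in 1 fit of all 15 arrays, 8 after median centring, 8 with dim probe sets left out, 2 with the animal number series as covariate, 0 with muscle and skin levels as covariates, and 0 to 10 when an array was left out. In MEKi against control the count of 0 became 1 in the fit of all arrays and 0 to 5 with an array left out, and for the interaction 0 to 1. For MEKi/CD40 Ab and for MEKi against control, the share of all probe sets in the fit of all arrays is not given here. Nor is that after median centring or with dim probe sets left out, or that with the series in MEKi/CD40 Ab against control. These counts are therefore not a result about the group. The Cdt1 fold change in MEKi/CD40 Ab against control turned to -0.01 after median centring and lay between -0.0033 (without MEKi/CD40 Ab replicate 3) and 0.087 with an array left out. That of Rrm2 turned to 0.011 with muscle and skin levels as covariates, a fit that cannot separate muscle from treatment with MEKi. Of the medians, 2 moved by more than the replicate spread, both with muscle and skin as covariates: to 0.15 in MEKi/CD40 Ab against control and 0.22 against CD40 Ab.

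Probe sets called in MEKi/CD40 Ab against control were 6450, 3910 genes by gene means, 894 with muscle and skin, and 4077 to 6035 with an array left out. In MEKi against control they were 7162, 4179 by gene means, 3159 with the replicate block, 720 with the series, 1418 with muscle and skin, and 4398 to 7883. In CD40 Ab against control they were 323, 42 in the fit of all arrays, 189 by gene means, and 0 (without control replicate 1) to 320. For MEKi/CD40 Ab against MEKi they were 1264, 3663 in the fit of all arrays, 180 with the block, 249 with muscle and skin, and 431 to 2089, and the series could not be fitted. For MEKi/CD40 Ab against CD40 Ab they were 2019, 935 with the block, 205 with muscle and skin, and 933 to 1908. For the interaction they were 1441, 84 with the series, 459 with muscle and skin, and 745 to 2072. Gene means test fewer features.

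Replicate numbers did not pair the arrays: 9 of 21 same-numbered pairs correlated over 0.1 (median 0.03, range -0.28 to 0.21). With the replicate block, Tk1 (adjusted p = 0.0392) and Pola1 (adjusted p = 0.0422) passed in MEKi/CD40 Ab against control, and Lig1 (0.0536), Pole (0.0522) and Orc6 (0.0767) did not.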
